A study of Mus musculus with 15 samples.

Results

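The genes described here are the Cyp2d, Cyp2j, Cyp3a and Cyp4 families of cytochrome P450, 33 of the 13938 protein-coding genes in the deposited table and 33 of its 75 Cyp genes. They were chosen by name, as Cyp2d, Cyp2j and Cyp3a genes and as Cyp4 genes with a letter after the 4, which gave 7 Cyp2d, 3 Cyp2j, 9 Cyp3a and 14 Cyp4 genes (6 Cyp4a, 1 Cyp4b, 6 Cyp4f and 1 Cyp4v). The study sequenced polyadenylated RNA of C57BL/6J mice in which hepatocellular carcinoma (HCC) was induced by injecting diethylnitrosamine (DEN), a DNA-alkylating carcinogen, and carbon tetrachloride (CCl4), a liver toxin, into the peritoneal cavity. Its 5 groups of 3 samples were big HCC nodules, small HCC nodules and thymi of model mice 8, 15 and 25, and livers and thymi of normal mice injected with corn oil. Neither age, sex nor duration of treatment is stated in the labels, and the normal livers are those of other animals, so carcinogen exposure and tumour growth cannot be told apart.

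Cytochrome P450 enzymes of these families sit in the endoplasmic reticulum, take electrons from P450 reductase and cytochrome b5, and insert an oxygen atom into lipids, steroids and drugs. Cyp2d and Cyp3a enzymes are best known for drugs and steroids, Cyp2j enzymes for turning arachidonic acid into epoxides, and Cyp4 enzymes for hydroxylating the end of fatty acid and eicosanoid chains. The mouse genes lie in clusters of close copies, and many are made chiefly by hepatocytes, under receptors that sense drugs, fatty acids or growth hormone.

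Values are FPKM, fragments scaled to transcript length and to the mapped fragments of the sample, so they compare levels between genes per length. The spacing of the smallest values put the depth at about 8040000 to 12800000 fragments per sample. The hepatocyte transcript Alb lay between 19490 and 26620 FPKM in nodules, between 10580 and 12800 FPKM in normal livers and between 89.96 and 135.3 FPKM in thymi, and the thymocyte transcript Cd3e between 107 and 133 FPKM in thymi. A pair of the normal livers carries the same mouse number, 3, in its titles, so p-values measure the spread between these samples, which may in part be technical. The deposited liver columns are numbered 2, 3 and 5, as are the mice of the normal thymi. Which numbering of the livers is right cannot be told. Among the 6 nodules, the small nodule of mouse 15 had the highest value of 14 of the 27 genes tested, and the big nodule of mouse 8 the lowest of 16. Across all genes the log2 values of the small nodule of mouse 15 correlated with those of the livers at 0.931 to 0.933 and those of the big nodule of mouse 8 at 0.893 to 0.896, against 0.909 to 0.924 for the other nodules. Normal liver 3 was the lowest of the 3 livers for 15 of the 27 genes.

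Most of these genes with a called difference were lower in nodules than in normal livers. Of 27 genes that reached 1 FPKM in at least 3 of the 9 samples, 14 fell, 4 rose and 9 were not called (limma on log2(FPKM + 1), adjusted p under 0.05, with the 3 model mice as replicates). Among the rises, Cyp4f16 was under 1 FPKM in every liver and passed this filter only through the nodules. Over all 10669 genes tested, 13.1% fell and 27.4% rose, so the share of P450 genes that fell, 51.9%, stood above the background and the share that rose, 14.8%, below it. All 6 nodules lay below all 3 livers for 13 of the 27 genes and above them for 3, against 12.3% and 27.4% of all genes. The median log2 difference was -0.97 over the 27 genes and 0.13 over all genes tested. The split over all genes moved with the scaling: 67.6% of calls were rises in the values as deposited, 78.8% with every sample brought to the same sum (median 0.24) and 49.6% after quantile normalization (median -0.05), while the P450 genes gave 14 falls and 5 rises, and 16 falls and 4 rises, under those scalings. Leaving out mouse 15, whose small nodule stood nearest to the livers, gave 15 falls and 3 rises, and leaving out mouse 8 gave 14 falls and 2 rises. Over all genes these fits gave 1299 falls and 2359 rises among 10415, and 1091 falls and 2457 rises among 10470. In bulk tissue, fewer cells of a type and less RNA per cell cannot be told apart. The list of hepatocyte markers held more rises than falls: 7 of its 14 tested members rose (50%) and 3 fell (21.4%), and its summed level was 48540 to 64520 FPKM in nodules, against 31550 to 35330 FPKM in normal livers.

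**Figure D1:**
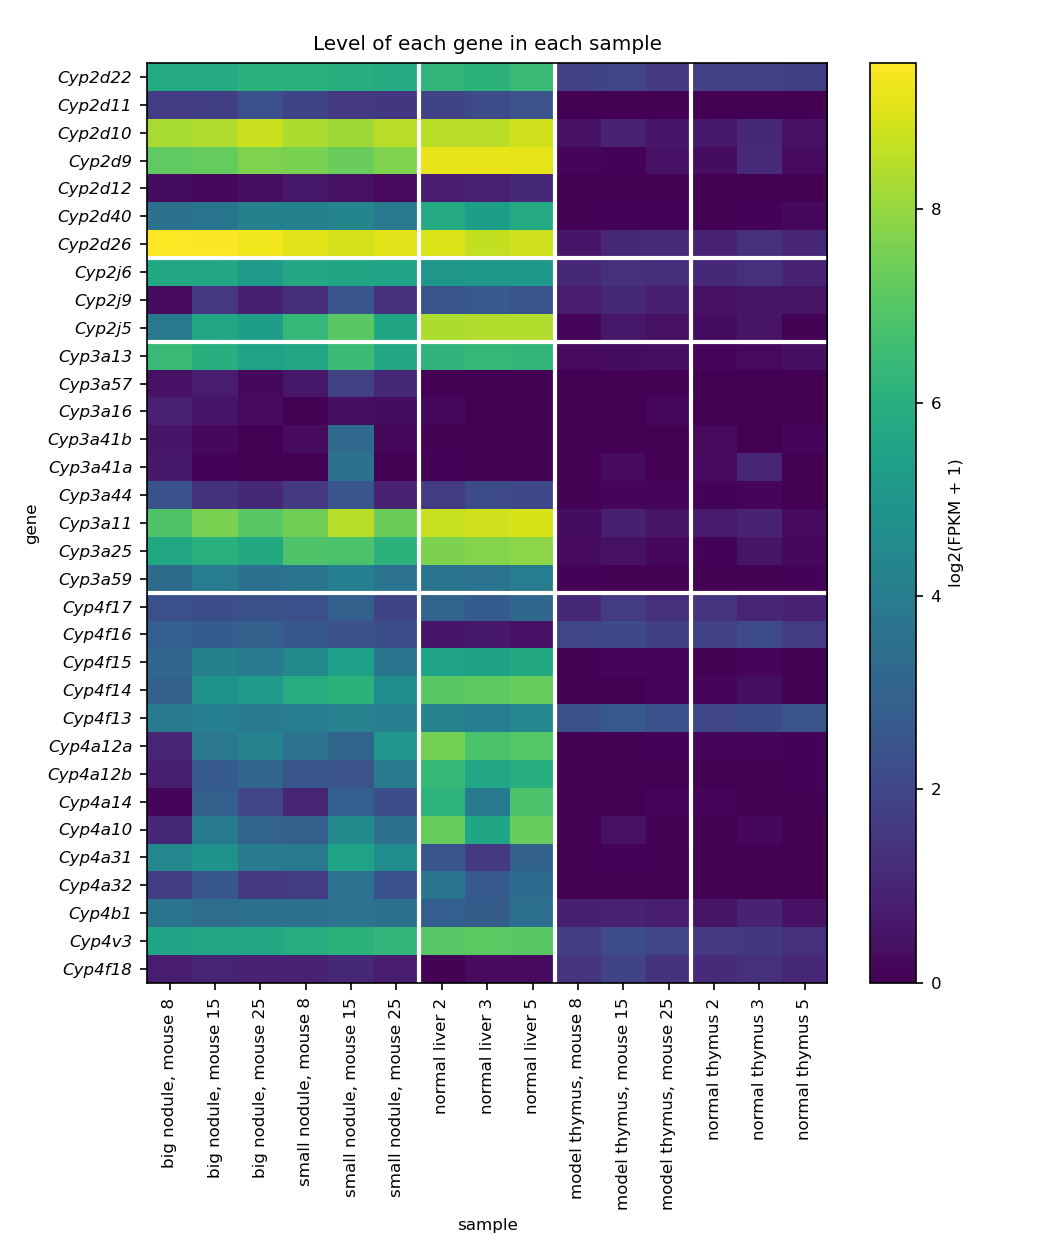
Level of the 33 genes (rows, ordered by family and position) in the 15 samples (columns, nodules then normal livers, model thymi then normal thymi), coloured by log2(FPKM + 1); white lines part the groups and the families. Most rows are brightest in normal livers, Cyp2d26 and Cyp4a31 are brighter in nodules, Cyp3a41a and Cyp3a41b stand out in 1 small nodule, and nearly all rows are dark in thymi.

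The Cyp2d family, the mouse relatives of human CYP2D6, differed more in make-up than in summed level. Its sum averaged 1200 ± 64.5 FPKM in nodules and 1557 ± 86.1 FPKM in normal livers (SD, n = 3 mice and 3 livers), or 77% of the liver level with no test, and of its 6 tested genes 2 fell, 1 rose and 3 were not called. Cyp2d9, a testosterone hydroxylase known for higher levels in male liver, made up 11.5% to 17.1% of the family sum in nodules, against 35.5% to 39.9% in normal livers. Cyp2d26, of unsettled function, made up 45.6% to 58.4% in nodules and 27.2% to 31.3% in normal livers. The order of the pair differed between the tissues: Cyp2d9 was the highest Cyp2d gene in every liver, and Cyp2d26 in every nodule.

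Cyp2d9 had 143, 153 and 202 FPKM in the big nodules and 193, 162 and 202 FPKM in the small nodules of mice 8, 15 and 25, against 589.6, 582 and 576 FPKM in normal livers 2, 3 and 5. No nodule reached the lowest liver, and the log2 difference was -1.74, SE 0.13, adjusted p = 5.74e-05. Cyp2d40 fell too: nodules had 10.9 to 19.1 FPKM (median 15.2), against 54.8, 38.2 and 55.5 FPKM in livers (-1.67, SE 0.16, adjusted p = 0.000179). Cyp2d26 had 729.8, 709.8 and 629.5 FPKM in big nodules and 548, 479 and 538 FPKM in small nodules, against 497, 398 and 449.5 FPKM in livers. The small nodule of mouse 15 lay within the livers and the 3 big nodules above them all, and the rise, 0.42, SE 0.13, adjusted p = 0.0346, was lost under median-of-ratios scaling (adjusted p = 0.103), in a fit of all 9 samples with mouse as a random effect (adjusted p = 0.0695) and with any 1 mouse or any 1 liver other than liver 2 left out (adjusted p from 0.0606 to 0.103, limma).

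Cyp2d10, Cyp2d11 and Cyp2d22 were not called in the main fit. Under median-of-ratios scaling Cyp2d22 (adjusted p = 0.0306, limma) and Cyp2d11 (adjusted p = 0.0441) were called lower. Cyp2d11 was also called lower under quantile normalization (adjusted p = 0.0145) and without liver 2 (adjusted p = 0.0482). Cyp2d10, the other abundant form, had 284 to 429 FPKM (median 326) in nodules, against 370.3, 369 and 449.8 FPKM in livers, a log2 difference of -0.23, 95% interval -0.58 to 0.13. Cyp2d22 had 54.6 to 66.2 FPKM (median 59) in nodules and 73.5, 67.8 and 86.6 FPKM in livers (-0.33, 95% interval -0.62 to -0.03). Cyp2d11 was a minor form, with 1.94 to 4.01 FPKM (median 2.29) in nodules and 2.88, 3.56 and 4.39 FPKM in livers (-0.38, 95% interval -0.72 to -0.03). Cyp2d12 stayed at or under 1.16 FPKM in all samples and was not tested. The coding sequences of Cyp2d9 and Cyp2d10 are 92.5% identical, but only 8.62% of the 100-base windows of Cyp2d9 transcripts occur in another of the 33 genes. The window from 250 bases before to 50 bases after the start is shown for the pair of abundant close copies, of which Cyp2d9 fell and Cyp2d10 was not called, and for Cyp2d26 (RefSeq, GRCm38.p6, 5′ to 3′). Capitals mark matches, on either strand, to 6 motifs: TATAAA of core promoters, the nuclear receptor half-site AGGTCA, the HNF4 type CAAAGTCCA, the C/EBP type TTGCNNAA, the STAT5 type TTCNNNGAA and the HNF1 half-site GTTAAT.
Cyp2d9, chr15:82452127-82452426, plus strand: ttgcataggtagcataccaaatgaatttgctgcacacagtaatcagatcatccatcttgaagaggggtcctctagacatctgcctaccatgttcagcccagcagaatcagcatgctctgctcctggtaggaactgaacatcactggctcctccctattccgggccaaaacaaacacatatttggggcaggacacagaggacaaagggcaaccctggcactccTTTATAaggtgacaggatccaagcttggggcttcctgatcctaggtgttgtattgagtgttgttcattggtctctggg
Cyp2d10, chr15:82407145-82407444, minus strand: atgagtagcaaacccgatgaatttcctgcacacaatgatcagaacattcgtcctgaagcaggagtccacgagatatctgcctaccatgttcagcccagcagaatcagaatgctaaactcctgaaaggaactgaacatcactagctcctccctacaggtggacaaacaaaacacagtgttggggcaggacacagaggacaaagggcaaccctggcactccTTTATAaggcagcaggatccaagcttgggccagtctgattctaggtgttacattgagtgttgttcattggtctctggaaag
Cyp2d26, chr15:82794196-82794495, minus strand: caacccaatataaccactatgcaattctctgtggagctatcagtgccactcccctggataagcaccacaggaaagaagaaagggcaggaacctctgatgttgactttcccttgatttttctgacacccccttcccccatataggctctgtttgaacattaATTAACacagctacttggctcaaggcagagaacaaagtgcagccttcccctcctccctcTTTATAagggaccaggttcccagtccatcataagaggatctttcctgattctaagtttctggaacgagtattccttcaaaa
The windows of Cyp2d9 and Cyp2d10 were 82.9% identical and both held TTTATA, which is TATAAA read on the other strand, 28 bases (Cyp2d9) and 31 bases (Cyp2d10) before the RefSeq start. The window of Cyp2d26 was 52.3% identical to that of Cyp2d9, held the same match 31 bases before the start, and also held ATTAAC, an HNF1 half-site on the other strand, 90 bases before it.

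**Figure D2:**
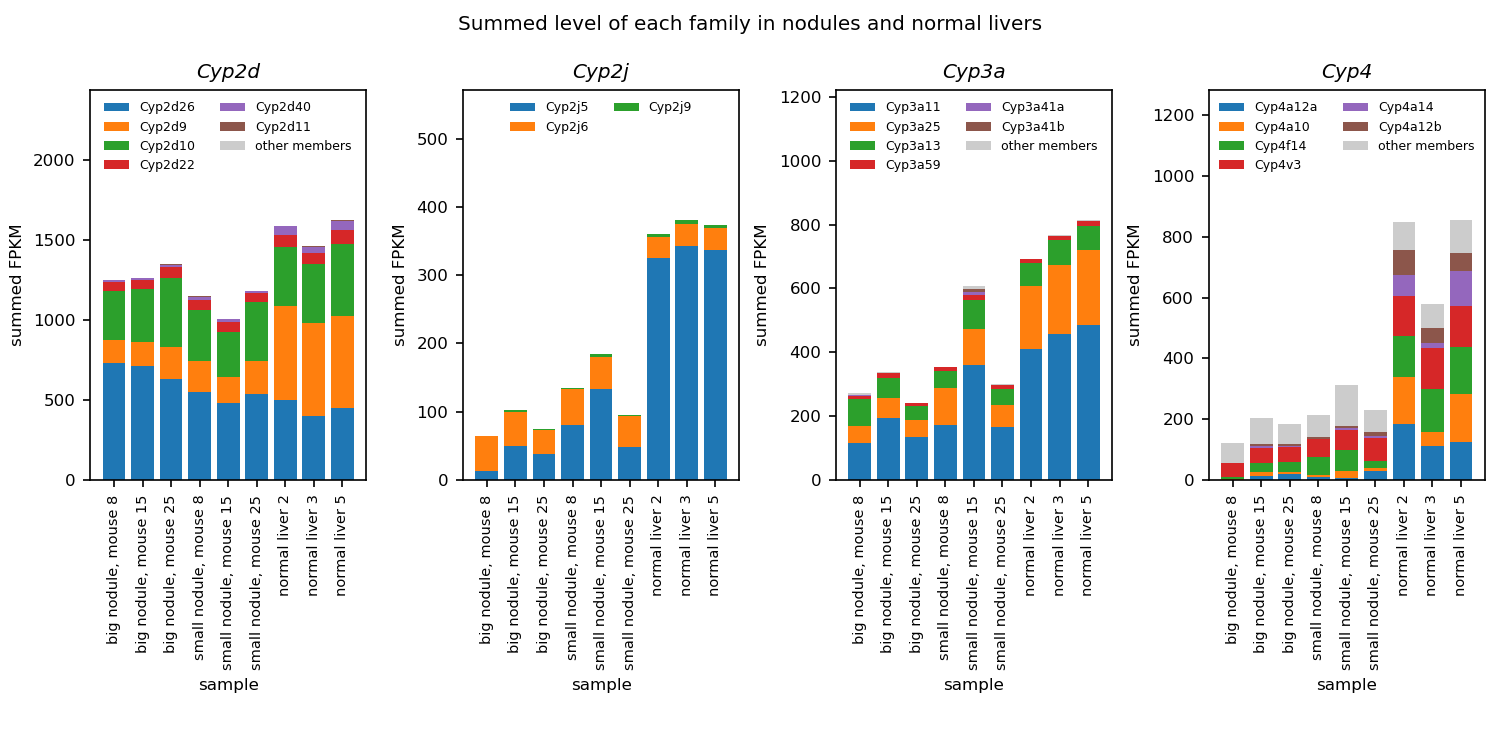
Summed FPKM of each family in nodules and normal livers, 1 bar per sample, with the share of each gene in colour. The Cyp2d bars reach 1008 to 1349 FPKM in nodules, against 1460 to 1623 FPKM in livers, with a smaller Cyp2d9 and a larger Cyp2d26 part. Cyp2j5 is the largest part of the Cyp2j bars in livers and shrinks in nodules, and Cyp3a and Cyp4 bars are lower in every nodule than in any liver. The Cyp3a bar of the small nodule of mouse 15, at 607 FPKM, comes nearest to the lowest liver, at 694 FPKM.

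The summed level of the Cyp2j family averaged 109 ± 30.6 FPKM in nodules and 372 ± 10.1 FPKM in normal livers (SD, n = 3 mice and 3 livers), or 29.4% of the liver level. Of its 3 genes 2 fell and 1 rose, and Cyp2j5 made up 20.7% to 72% of the sum in nodules, against 89.9% to 90.1% in livers. Cyp2j5, an arachidonic acid epoxygenase of liver and kidney, had 13.4, 50 and 38 FPKM in big nodules and 80.7, 133 and 48.1 FPKM in small nodules, against 325, 342 and 337 FPKM in livers. Every nodule lay below every liver, and the log2 difference was -2.75, SE 0.29, adjusted p = 0.000249. Cyp2j9, first described in brain, had 0.214, 2.02 and 0.798 FPKM in big nodules, 1.34, 4.85 and 1.51 FPKM in small nodules and 4.59, 5.45 and 4.52 FPKM in livers. Its small nodule of mouse 15 lay within the livers and the other nodules below them (-1.24, SE 0.30, adjusted p = 0.0132).

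Cyp2j6, known from the intestine, rose. Its nodules had 51.3, 49.9 and 35.5 FPKM (big) and 52.6, 47 and 45.1 FPKM (small), against 31.5, 33.1 and 32.5 FPKM in livers (0.51, SE 0.13, adjusted p = 0.0155). All 6 nodules were above all 3 livers, but the call was lost without mouse 8 (adjusted p = 0.0522, limma) or without liver 2 (0.0558). With Cyp2j5 lower and Cyp2j6 higher, Cyp2j6 made up 25.4% to 79% of the family sum in nodules, against 8.68% to 8.74% in livers. The 3 genes share no 100-base window. The windows around the starts of Cyp2j5, which fell, and Cyp2j6, which rose, are shown with the same marks.
Cyp2j5, chr4:96664070-96664369, minus strand: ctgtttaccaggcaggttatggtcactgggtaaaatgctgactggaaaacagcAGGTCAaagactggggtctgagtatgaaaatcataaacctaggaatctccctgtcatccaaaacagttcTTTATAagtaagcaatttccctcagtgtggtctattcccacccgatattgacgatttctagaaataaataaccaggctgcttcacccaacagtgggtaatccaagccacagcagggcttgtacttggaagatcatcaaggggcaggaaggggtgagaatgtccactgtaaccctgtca
Cyp2j6, chr4:96553602-96553901, minus strand: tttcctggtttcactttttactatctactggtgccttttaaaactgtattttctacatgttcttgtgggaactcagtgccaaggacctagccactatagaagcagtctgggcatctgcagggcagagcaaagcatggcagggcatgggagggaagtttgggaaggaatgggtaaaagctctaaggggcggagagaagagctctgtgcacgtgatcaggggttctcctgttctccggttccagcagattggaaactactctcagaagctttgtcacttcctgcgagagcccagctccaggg
The windows were 45.2% identical. That of Cyp2j5 held AGGTCA at 197 and TTTATA at 128 bases before the start, and that of Cyp2j6 held none of the motifs searched.

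The summed level of the Cyp3a family averaged 352 ± 106 FPKM in nodules and 758 ± 60.8 FPKM in normal livers (SD, n = 3 mice and 3 livers), or 46.4% of the liver level. Of its 9 genes 5 were tested: 2 fell, none rose, and 3 were not called. Cyp3a11, the main drug-metabolizing Cyp3a of mouse liver and a target of the xenobiotic receptor PXR, had 117, 193 and 133 FPKM in big nodules and 172, 360.4 and 166 FPKM in small nodules, against 411, 458 and 487 FPKM in livers. Every nodule was below every liver, the small nodule of mouse 15 least so, and the log2 difference was -1.34, SE 0.24, adjusted p = 0.00288. The deposited value of its 1 listed transcript is higher than the gene's, 255 to 783 FPKM in nodules and 891 to 1056 FPKM in livers, with a gene-to-transcript ratio of 0.46 in all of them, so comparisons of its level with other genes depend on which is used while its fold does not. Cyp3a25, another liver form, had 51.3, 64.5 and 53.8 FPKM in big nodules and 117, 112 and 67.4 FPKM in small nodules, against 198, 215 and 233 FPKM in livers (-1.53, SE 0.16, adjusted p = 0.000209). Its nodules all lay below the livers.

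The other Cyp3a genes were not called or too low to test. Cyp3a13, best known from the intestine, had 43.6 to 90.5 FPKM (median 57) in nodules and 71, 78.9 and 76.2 FPKM in livers (-0.28, 95% interval -0.68 to 0.13). Cyp3a59 had 9.38 to 16.3 FPKM (median 11.7) in nodules and 11.6, 11.3 and 15.1 FPKM in livers (-0.05, 95% interval -0.46 to 0.37). Cyp3a44, known as a form of female liver, had 0.817 to 4.88 FPKM (median 1.85) in nodules and 2.19, 3.47 and 3.15 FPKM in livers (-0.31, 95% interval -0.97 to 0.34). For none of the 3 does the interval exclude a difference of 0, which does not show that they were alike. Cyp3a59 and Cyp3a25 have coding sequences that are 97.5% identical.

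Cyp3a41a and Cyp3a41b, a further pair of forms known from female liver, reached 1 FPKM in only 1 of the 15 samples. The small nodule of mouse 15 had 10.8 FPKM of Cyp3a41a and 8.57 FPKM of Cyp3a41b, about 205 and 162 fragments. The other nodules had at most 0.555 and 0.507 FPKM, and livers at most 0.0637 and 0.0402 FPKM. Among thymi, the normal thymus of mouse 3 had 0.989 FPKM of Cyp3a41a, about 26 fragments, with Cyp3a41b listed at 0. The pair shares 88.4% of its 100-base windows, so the split between them is uncertain and only their sum can be read. Cyp3a57 was listed at 0 in every liver and at 0.144 to 2.64 FPKM in nodules, again highest in the small nodule of mouse 15, and Cyp3a16, known as a fetal form, had 0 to 0.851 FPKM in nodules and 0 to 0.145 FPKM in livers. None of these 4 reached 1 FPKM in 3 samples. The window around the Cyp3a11 start is shown as that of the highest Cyp3a gene.
Cyp3a11, chr5:145879805-145880104, minus strand: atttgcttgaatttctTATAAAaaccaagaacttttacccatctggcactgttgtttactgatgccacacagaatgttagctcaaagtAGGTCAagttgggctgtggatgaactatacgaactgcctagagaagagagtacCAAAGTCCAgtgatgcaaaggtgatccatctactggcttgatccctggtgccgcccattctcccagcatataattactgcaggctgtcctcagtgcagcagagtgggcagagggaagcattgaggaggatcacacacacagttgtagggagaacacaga
It held CAAAGTCCA 109 bases, AGGTCA 162 bases and TATAAA 234 bases before the RefSeq start. That start lies 110 bases inside the deposited gene.

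The 14 Cyp4 genes summed to 212 ± 45.2 FPKM in nodules and 761 ± 158 FPKM in normal livers (SD, n = 3 mice and 3 livers), or 27.8% of the liver level, the lowest of the 4 families. Of 13 tested, 8 fell, 2 rose and 3 were not called. The Cyp4a genes, which encode omega-hydroxylases of fatty acids, held the 4 largest falls among the 27 genes tested and, on log2(FPKM + 1), the largest rise, that of Cyp4a31. As a ratio of means the rise of Cyp4f16 was larger: its nodules averaged 1069% of the liver level, against 524% for Cyp4a31. Cyp4a12a, known as the male form that makes hydroxyeicosatetraenoic acid in mouse kidney, had 1.04, 12.7 and 18.3 FPKM in big nodules and 11.3, 7.35 and 29.9 FPKM in small nodules, against 183, 111 and 126 FPKM in livers. The highest nodule was far below the lowest liver, and the log2 difference was -3.65, SE 0.50, adjusted p = 0.000889. Its near copy Cyp4a12b had 0.719 to 14.1 FPKM (median 5.11) in nodules and 81, 50.7 and 61 FPKM in livers (-3.42, SE 0.42, adjusted p = 0.000534). Their coding sequences are 98.5% identical and 35.8% of their windows are shared, so part of what either shows may belong to the other.

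Cyp4a10 and Cyp4a14, classic targets of the fatty acid receptor PPAR alpha, fell as far but varied more. Cyp4a10 had 1.07, 14.5 and 7.09 FPKM in big nodules and 6.39, 22.3 and 10 FPKM in small nodules, against 157, 48 and 156 FPKM in livers (-3.58, SE 0.62, adjusted p = 0.00275). Cyp4a14 had 0.137, 6.35 and 3.11 FPKM in big nodules and 0.994, 6.12 and 3.9 FPKM in small nodules, against 70.2, 14.7 and 112 FPKM in livers (-3.78, SE 0.78, adjusted p = 0.0063). Liver 3 held less than the other livers of both, and still more than any nodule. The big nodule of mouse 8 was the lowest nodule for both, and for Cyp4a12a and Cyp4a12b as well.

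Cyp4a31 follows Cyp4a10 on chromosome 4 and rose. Its nodules had 20.6, 28 and 13.7 FPKM (big) and 13.5, 45.1 and 23.4 FPKM (small), against 4.87, 2.07 and 6.85 FPKM in livers, without overlap, and the log2 difference was 2.15, SE 0.38, adjusted p = 0.00315. Cyp4a32, next in the cluster, had 2.09 to 11.3 FPKM (median 3.26) in nodules, against 12.3, 5.42 and 8.98 FPKM in livers, and was not called in nodules as a whole (-0.97, 95% interval -1.87 to -0.08). The longest listed transcript of Cyp4a31, Cyp4a31-202, has a coding sequence 96.6% identical to Cyp4a10 and 96.0% to Cyp4a32, so reads could be shared. Other transcripts of Cyp4a31 were not compared. Cyp4a31 and Cyp4a10 moved in opposite directions, and the part of shared reads in this was not tested. The deposited transcript values placed the rise mainly in 1 form: Cyp4a31-201 had 7.85 to 25.2 FPKM in nodules, against 0.0131 to 0.224 FPKM in livers. Cyp4a31-202 had 2.95 to 20.8 FPKM in nodules, against 1.96 to 6.66 FPKM in livers. Cyp4a31-203 had 7.47, 6.98 and 7.71 FPKM in the big nodules of mice 8, 15 and 25. It was listed at 0 in all small nodules and livers. Cyp4a10-202 was listed at 0 in 5 of the 6 nodules and at 8.39 FPKM in the big nodule of mouse 15, against 15.3 to 81.3 FPKM in livers.

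**Figure D3:**
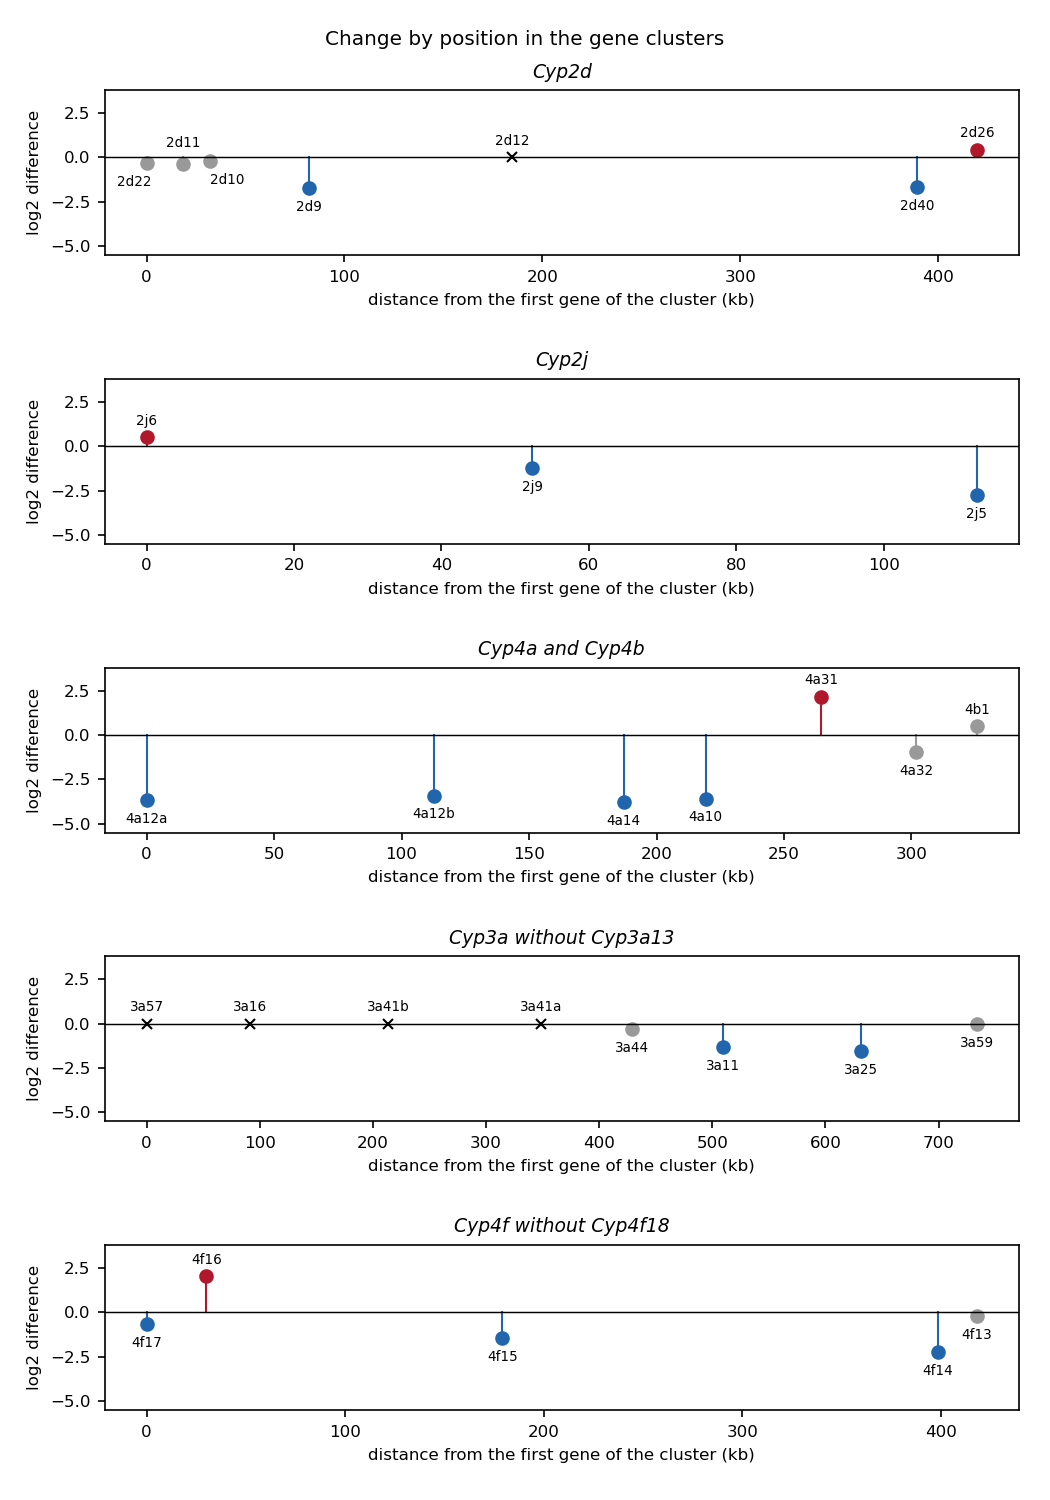
Log2 difference of nodules minus normal livers, on log2(FPKM + 1), for each gene at its distance in kb from the first gene of its cluster, 1 panel per cluster. Red is higher and blue lower at adjusted p under 0.05, grey is not called and a cross marks a gene not tested; Cyp4a31 (2.15) stands beside Cyp4a10 (-3.58), Cyp4f16 (2.05) beside Cyp4f17 (-0.64), and Cyp2j6 (0.51) in 1 cluster with Cyp2j5 (-2.75).

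Rises also stood beside falls in the Cyp2d, Cyp2j and Cyp4f clusters, as the plot by position in the clusters shows. The Cyp3a cluster held 2 falls and no rise among its tested genes. Its Cyp3a57, Cyp3a16, Cyp3a41a and Cyp3a41b were too low to be tested. A fit with no filter on low values, given below, called Cyp3a57 and Cyp3a16 higher. All 7 Cyp2d genes lie within 424 kb of chromosome 15 (mm10), with 2 falls, 1 rise and uncalled genes among them. The 6 Cyp4a genes and Cyp4b1 lie within 349 kb of chromosome 4, 8 of the 9 Cyp3a genes within 768 kb of chromosome 5 and 5 Cyp4f genes within 441 kb of chromosome 17.

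The Cyp4f genes encode hydroxylases of leukotrienes and other eicosanoids. Cyp4f14, a leukotriene B4 hydroxylase of mouse liver, had 6.67, 28.2 and 33.1 FPKM in big nodules and 58.9, 67.5 and 23.8 FPKM in small nodules, against 134, 141 and 157 FPKM in livers. Every nodule lay below every liver, the small nodules of mice 8 and 15 nearest to them, and the log2 difference was -2.25, SE 0.25, adjusted p = 0.000302. Cyp4f15 fell as well, with 7.82 to 40.2 FPKM (median 15.6) in nodules and 45.1, 42.4 and 53.3 FPKM in livers (-1.44, SE 0.26, adjusted p = 0.00322). All nodules lay below the livers, and the small nodule of mouse 15 came nearest. Cyp4f17 was lower by less, and its small nodule of mouse 15 lay within the livers: it had 2.85 to 6.36 FPKM (median 4.01) in nodules and 7.12, 5.9 and 8.11 FPKM in livers (-0.64, SE 0.16, adjusted p = 0.0139). Cyp4f13 was not called, with 14 to 17.7 FPKM (median 15.3) in nodules and 17.9, 15.7 and 20.5 FPKM in livers (-0.20, 95% interval -0.51 to 0.11).

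Cyp4f16 rose, with every nodule above every liver. It had 6.17, 5.89 and 6.5 FPKM in big nodules and 4.98, 4.18 and 3.85 FPKM in small nodules, against 0.501, 0.579 and 0.396 FPKM in livers (2.05, SE 0.11, adjusted p = 1.27e-05), the smallest adjusted p among the 27 genes. With every liver under 1 FPKM, Cyp4f16 passed the filter on low values only through the nodules. Without that filter the fit gave 2.05 (SE 0.11, adjusted p = 4.89e-05, limma). Cyp4f18, a leukotriene B4 hydroxylase of neutrophils, was too low to be tested, at 0.644 to 1.08 FPKM (median 0.887) in nodules and 0.0516, 0.218 and 0.198 FPKM in livers, about 9.6 to 16.8 fragments in nodules against 0.9 to 3.6 in livers. Every nodule was above every liver, and a fit with no filter on low values gave 0.68 (SE 0.09, adjusted p = 0.00121, limma). That fit also called Cyp3a57 (0.82, adjusted p = 0.014) and Cyp3a16 (0.33, adjusted p = 0.013) higher and Cyp2d12 (-0.55, adjusted p = 0.00514) lower. The summed level of neutrophil and monocyte markers was 6.45 to 17.7 FPKM in nodules, against 1.54 to 2.58 FPKM in livers. Of the 13 markers 3 were tested and these 3 rose, and Ly6g was listed at 0 in all 9 samples. No marker of this list reached 1 FPKM in all 3 livers. None could therefore pass the filter on low values without the nodules, which favoured rises among those tested. Of 12 macrophage markers 8 rose and none fell (66.7% and 0%, against 27.4% and 13.1% of all genes), with a summed level of 248 to 395 FPKM in nodules, against 159 to 202 FPKM in livers. Endothelial markers summed to 84.6 to 112 FPKM in nodules, against 55.2 to 64.2 FPKM in livers, with 6 of 9 tested higher and none lower. Stellate cell and fibroblast markers summed to 59.1 to 96 FPKM in nodules, against 47.6 to 59.5 FPKM in livers, with 7 of 11 higher and 1 lower. The part of these cells in the levels of Cyp4f16 and Cyp4f18 was not tested.

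Cyp4v3, the mouse counterpart of human CYP4V2, a fatty acid hydroxylase, had 46.4, 49.7 and 49.6 FPKM in big nodules and 58.6, 68.8 and 75.8 FPKM in small nodules, against 129.5, 136 and 136 FPKM in livers (-1.21, SE 0.12, adjusted p = 0.000167). Every nodule was below every liver. Cyp4b1, a form of lung known for activating small toxic molecules, had 9.64 to 11.6 FPKM (median 10.4) in nodules and 6.13, 6.04 and 10.1 FPKM in livers and was not called (0.50, 95% interval 0.07 to 0.93). The windows around the starts of Cyp4f14, the Cyp4 gene with the highest mean in livers, and Cyp4v3, that with the highest mean in nodules, are shown.
Cyp4f14, chr17:32917293-32917592, minus strand: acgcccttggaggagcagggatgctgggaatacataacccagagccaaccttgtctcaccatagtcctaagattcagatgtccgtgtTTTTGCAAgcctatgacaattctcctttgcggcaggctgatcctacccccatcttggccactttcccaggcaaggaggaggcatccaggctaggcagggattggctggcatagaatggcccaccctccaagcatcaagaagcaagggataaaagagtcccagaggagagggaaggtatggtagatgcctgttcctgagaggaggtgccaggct
Cyp4v3, chr8:45333114-45333413, minus strand: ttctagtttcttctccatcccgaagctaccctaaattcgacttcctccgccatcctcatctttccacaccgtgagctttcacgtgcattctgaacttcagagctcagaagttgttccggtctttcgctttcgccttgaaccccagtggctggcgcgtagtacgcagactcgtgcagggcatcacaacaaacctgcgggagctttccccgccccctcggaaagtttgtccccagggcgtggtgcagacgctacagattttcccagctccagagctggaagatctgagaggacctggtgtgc
That of Cyp4f14 held TTTTGCAA, a C/EBP-type match read on the other strand, 163 bases before the start, and that of Cyp4v3 none of the motifs.

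**Figure D4:**
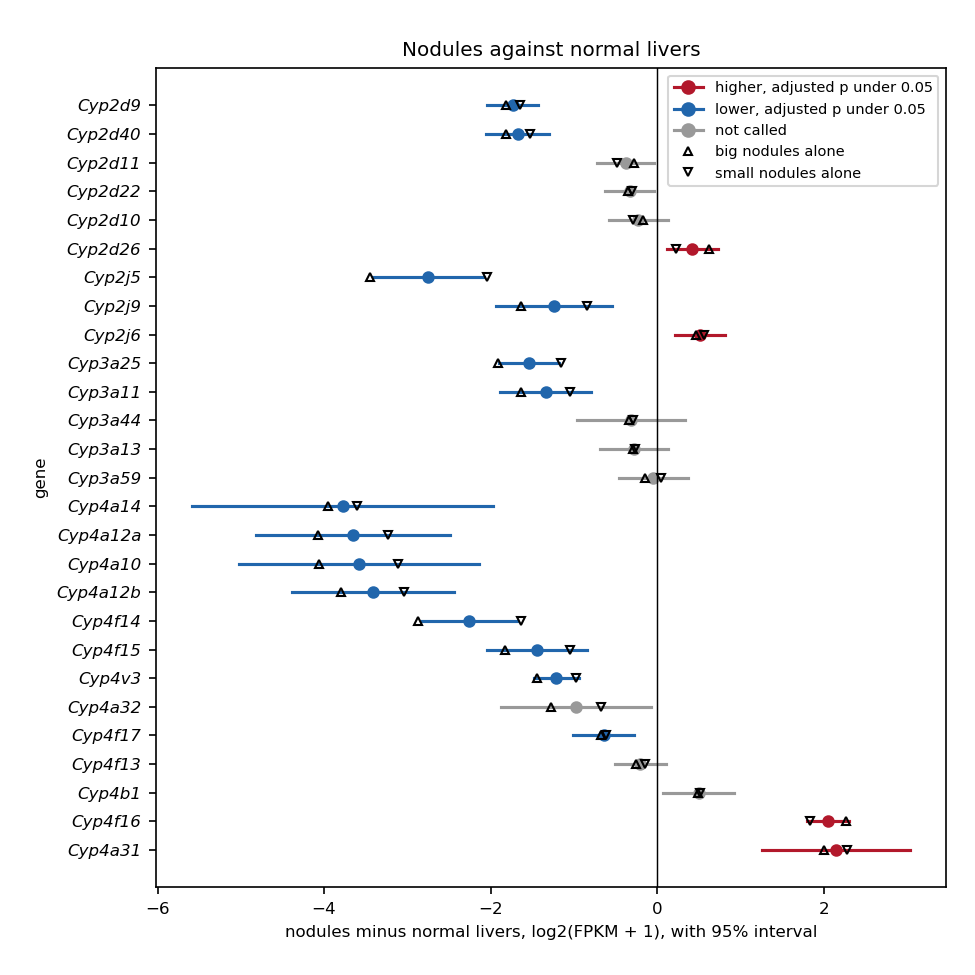
Log2 difference of nodules minus normal livers for the 27 genes tested, on log2(FPKM + 1), with the 95% interval from limma (3 model mice against 3 livers) and the differences of big and of small nodules alone as triangles. The intervals of 14 genes lie left of 0 with an adjusted p under 0.05, led by the Cyp4a genes from -3.78 to -3.42, and 4 genes lie right of 0.

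Of the 33 genes 25 were matched to a RefSeq start. TATAAA occurred in 12 of these 25 windows, against 13.6% of all 32851 windows in the table. The 12 include close copies and are not independent. Windows of Cyp2d9 and Cyp2d11, both with a match, were 84.5% identical, and those of Cyp3a16 and Cyp3a44 93.4%. CAAAGTCCA occurred in 4, all of the Cyp3a family (Cyp3a11, Cyp3a16, Cyp3a41a and Cyp3a41b), against 0.475% of all windows. These 4 genes are close copies of each other: the windows of Cyp3a41a and Cyp3a41b were 97.3% identical and those of Cyp3a11 and Cyp3a16 75.5%. AGGTCA occurred in 7 of 25 (16.3% of all windows), TTGCNNAA in 3 (10.8%), TTCNNNGAA in 2 (8.3%) and GTTAAT in 2 (7.1%). The full palindromic HNF1 motif, which holds GTTAAT within it, occurred in none (0.00913% of all windows). A match is a description of letters and says nothing of binding.

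Big and small nodules were then set against livers separately. Big nodules gave 15 falls and 3 rises among the 27 genes, where 13.3% of 10209 genes fell and 22.7% rose, and small nodules 11 falls and 3 rises, where 10.3% of 10262 genes fell and 23.7% rose. The 2 comparisons share their livers. Cyp4a32 was called lower in big nodules (-1.27, SE 0.33, adjusted p = 0.0197) and not in small nodules (-0.67, 95% interval -1.77 to 0.42). Cyp2j9, Cyp4f15 and Cyp4f17 were likewise called lower, and Cyp2d26 higher, in big and not in small nodules, and Cyp2j6 was called higher in small and not in big nodules. Without the small nodule of mouse 15, small nodules gave 16 falls and 2 rises, where 1097 of all 9584 genes fell and 1549 rose. Cyp4f16, under 1 FPKM in all livers, then missed the filter on low values, so its rise was not tested.

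Set against each other, big and small nodules gave no call among the 27 genes at an adjusted p under 0.05 in limma, nor among all 10415 genes (0%). At an unadjusted p under 0.05 there were 5 of the 27 genes, and 417 of all genes. Fitting mouse as a block also gave 0 calls. The 5 were Cyp3a25 (log2 difference -0.76, 95% interval -1.30 to -0.22), Cyp4v3 (-0.46, 95% interval -0.80 to -0.12), Cyp2j5 (-1.41, 95% interval -2.63 to -0.19), Cyp4f16 (0.43, 95% interval 0.11 to 0.76) and Cyp2d26 (0.40, 95% interval 0.07 to 0.73). Within mice, 10 of the 27 genes were lower in the big nodule of all 3 mice and 2 were higher, against 20.8% and 9.9% of all genes. The 10 were Cyp2d9, Cyp2j5, Cyp2j9, Cyp3a11, Cyp3a25, Cyp3a59, Cyp4a10, Cyp4a32, Cyp4f13 and Cyp4v3, and the 2 were Cyp2d26 and Cyp4f16. Direction alone was counted, and some log2 differences were near 0: -0.001 for Cyp2d9 in mouse 25 and -0.017 for Cyp4a32 in mouse 8. Those of Cyp4f13 were -0.085, -0.126 and -0.1 in mice 8, 15 and 25. The difference within mouse 8 was -2.50 on the log2 scale for Cyp2j5, against -1.39 in mouse 15 and -0.33 in mouse 25. Cyp4f14 was lower in the big nodule by 2.97 in mouse 8 and 1.23 in mouse 15, and 0.46 higher in mouse 25.

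**Figure D5:**
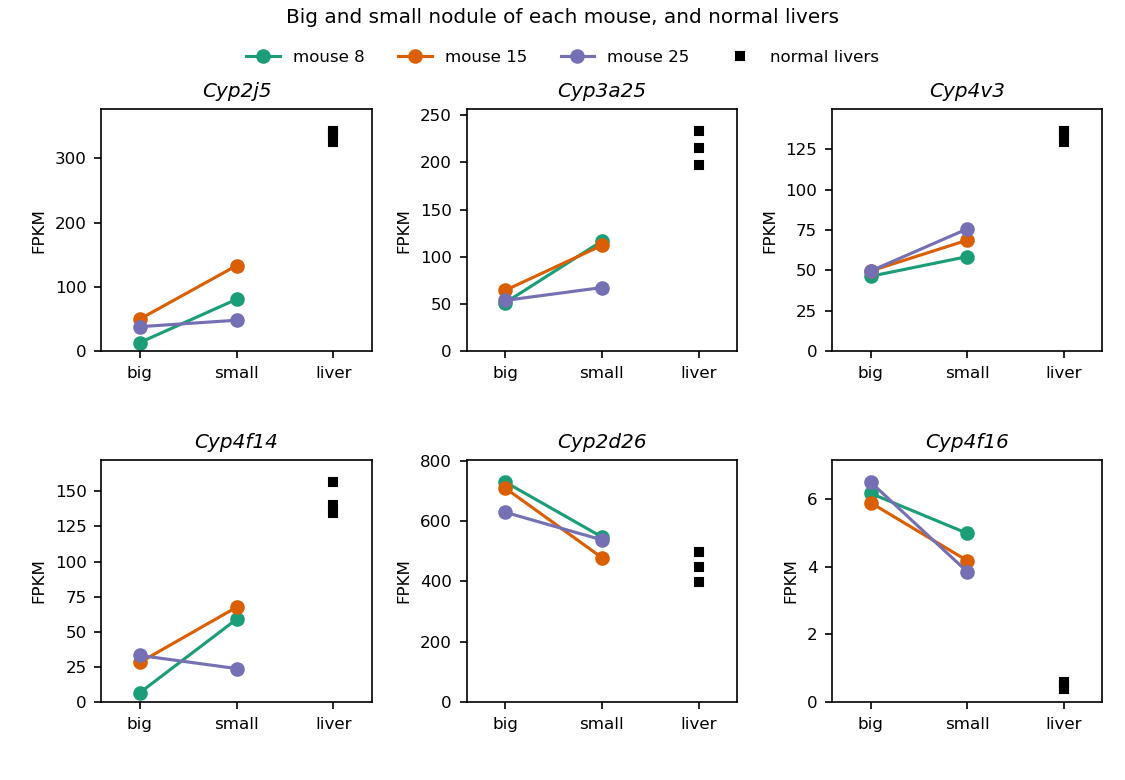
FPKM of 6 genes in the big and the small nodule of each mouse (joined points) and in the 3 normal livers (squares). Cyp2j5, Cyp3a25 and Cyp4v3 are lower in the big nodule of all 3 mice and highest in livers, Cyp4f14 is so in mice 8 and 15, and Cyp2d26 and Cyp4f16 are higher in the big nodule of all 3 mice.

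Genes that act with these enzymes were read from lists of textbook pathways, whose shares are set beside the 13.1% of all genes that fell and the 27.4% that rose. Of the 6 electron donors of microsomal P450, 3 fell (50%) and 1 rose (16.7%; median -0.31, against 0.13 over all genes). P450 reductase itself, Por, had 35.1 to 84.4 FPKM in nodules and 55.7, 55.9 and 64.9 FPKM in livers and was not called (0.11, SE 0.21, adjusted p = 0.716, limma). Cyb5a, cytochrome b5, had 93.1 to 153 FPKM in nodules and 169.8, 199 and 237 FPKM in livers (-0.80, SE 0.17, adjusted p = 0.00651), and its mitochondrial relative Cyb5b fell by 1.29 (SE 0.11, adjusted p = 0.000101). Pgrmc1, a haem-binding partner of P450 enzymes, fell by 0.73, and Cyb5r1, a cytochrome b5 reductase, rose by 1.46.

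Among 19 tested receptors and hepatocyte factors of these genes, 3 fell (15.8%, near the 13.1% of all genes) and 2 rose (10.5%, against 27.4%), with a median of -0.16. Nr1i3, which encodes the drug-sensing receptor CAR, had 4.57, 7.83 and 3.97 FPKM in big nodules and 6.48, 14.7 and 4.16 FPKM in small nodules, against 54, 34 and 35.5 FPKM in livers (-2.50, SE 0.31, adjusted p = 0.000575). All nodules lay below all livers, and the small nodule of mouse 15 was again the highest. Nr1h4, the bile acid receptor FXR, fell by 1.08 and Ahr, the dioxin receptor, by 0.60, while the hepatocyte factor Foxa3 rose by 1.05. Nr1i2, which encodes PXR, had 21.8 to 36.9 FPKM in nodules and 32.1, 30.1 and 36.3 FPKM in livers and was not called. Ppara had 11.6 to 23.2 FPKM in nodules and 12.4, 10.8 and 12.7 FPKM in livers and was not called either. Both were named after their values were seen.

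Other PPAR alpha targets held more falls than rises. Of 24 tested outside the Cyp4 family, 12 fell (50%, against 13.1% of all genes) and 1 rose (4.17%, against 27.4%), with a median of -0.66. Their summed level was 1884 to 3768 FPKM in nodules and 5321 to 6507 FPKM in livers. The peroxisomal thiolase gene Acaa1b fell by 2.45 (SE 0.44, adjusted p = 0.00319, limma), Fabp1, the liver fatty acid carrier, by 1.29, and Cpt2 of mitochondrial fatty acid import by 1.28. Of 17 tested genes for the steps after omega-hydroxylation, 12 fell (70.6%, against 13.1%) and 3 rose (17.6%, against 27.4%), with a median of -0.97. Adh4, an alcohol dehydrogenase, had 9.75 to 22.1 FPKM in nodules and 134, 125 and 127 FPKM in livers (-3.10, SE 0.13, adjusted p = 4.86e-06), and the aldehyde dehydrogenase gene Aldh1a1 fell by 2.98. The peroxisomal transporter gene Abcd2 had 27.8 to 46 FPKM in nodules and 1.06, 0.72 and 1.78 FPKM in livers and rose by 4.10 (SE 0.19, adjusted p = 6.47e-06). The lists overlap, so their counts are not independent.

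Of 12 tested epoxide hydrolases and eicosanoid enzymes, 4 fell and 4 rose (33.3% each, against 13.1% and 27.4% of all genes), with a median of -0.05. Ephx2, the soluble epoxide hydrolase that opens the epoxides made by Cyp2j enzymes, had 42.2 to 105 FPKM in nodules and 332, 341 and 376 FPKM in livers (-2.27, SE 0.16, adjusted p = 4.21e-05, limma). Hpgd, which inactivates prostaglandins, fell by 1.49, Ptgr1 rose by 2.05, and Alox5, the leukotriene-forming lipoxygenase listed at 0 in every liver, had 1.85 to 8.65 FPKM in nodules. Of 11 tested genes of growth hormone signalling, 3 fell (27.3%, against 13.1%) and 2 rose (18.2%, against 27.4%), with a median of -0.18. The receptor genes Ghr and Prlr fell by 1.87 and 1.69, their target Igf1 by 1.65, and the kinase gene Jak2 rose by 0.48. Stat5b, the transducer of this signal, had 8.29 to 14.8 FPKM in nodules and 9.02, 7.38 and 17.5 FPKM in livers and was not called, and was named after its values were seen.

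In thymi these genes were low: 27 of the 33 stayed under 1.5 FPKM in every thymus. Of the 26 genes that averaged 1 FPKM or more in livers, 17 stayed in every thymus at or below 0.74% of the lowest liver. For Alb that share was 1.28%, and the origin of the values of Alb and of these 17 genes in the thymi was not tested. The genes above that share were Cyp2d22, Cyp2j6, Cyp2j9, Cyp3a44, Cyp4a31, Cyp4b1, Cyp4f13, Cyp4f17 and Cyp4v3. For 2 of them it rests on values near the floor. Cyp4a31 was listed at 0 in every thymus but that of mouse 15 (0.072 FPKM). Cyp3a44 reached at most 0.1035 FPKM, about 2.5 fragments. Cyp4f13 had 4.15, 5.46 and 4.04 FPKM in model thymi and 3.07, 3.37 and 4.6 FPKM in normal thymi, and Cyp4f16, at 0.501, 0.579 and 0.396 FPKM in normal livers, had 3.07, 3.23 and 2.48 FPKM in model thymi and 2.54, 3.59 and 2.13 FPKM in normal thymi. Cyp2d22 was as even, with 2.61, 2.95 and 2.08 FPKM in model thymi and 2.67, 2.56 and 2.43 FPKM in normal thymi. In the normal thymus of mouse 3, Cyp2d9, Cyp2d10 and Cyp3a41a had 1.18, 1.15 and 0.989 FPKM, the highest of the 6 thymi for each, as were its Apoa1 (38 FPKM) and its summed hepatocyte markers (299.6 FPKM, against 195 to 276 FPKM in the other thymi). Its Alb, at 122 FPKM, was below the 135 FPKM of the normal thymus of mouse 2. The part of liver RNA in these values was not tested.

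Between model and normal thymi, 8 of the 33 genes were tested and none was called in limma, nor was any of 11332 genes (0%). At an unadjusted p under 0.05 there was 1 of the 8, and 1159 of all genes. That gene was Cyp4v3, with 2.35, 3.6 and 2.92 FPKM in model thymi and 2.01, 1.93 and 1.45 FPKM in normal thymi, a log2 difference of 0.50, 95% interval 0.12 to 0.87. Cyp4f18 had 1.68, 2.77 and 1.63 FPKM in model thymi and 1.21, 1.53 and 1.14 FPKM in normal thymi (0.38, 95% interval -0.01 to 0.78). Every model thymus was above every normal thymus for both, as for 12.3% of all genes. B cell markers summed to 33.2 to 50.1 FPKM in model thymi and 24.8 to 35.2 FPKM in normal thymi, with none of their 8 genes listed at 0 throughout. Macrophage markers summed to 255 to 392 FPKM in model thymi and 201 to 300.3 FPKM in normal thymi, and neutrophil and monocyte markers to 29.9 to 37.9 FPKM in model thymi and 28 to 80.4 FPKM in normal thymi. No gene of these 3 lists was called, and their part in the level of Cyp4f18 was not tested. The other 6 genes tested, Cyp2d22, Cyp2d26, Cyp2j6, Cyp4f13, Cyp4f16 and Cyp4f17, had log2 differences from -0.17 to 0.25.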

How the data were processed

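Libraries of polyadenylated RNA were made with a stranded kit and read on an Illumina NovaSeq, per the labels' protocols. Tables of FPKM were deposited by the authors for 13938 genes and for their transcripts, per the file headers. The submitters' processing notes name FastQC 0.11.7, cutadapt, HISAT2 2.1.0, StringTie 1.3.3 and the build mm10, with no strand setting or annotation release. FPKM are not counts, so no count test was run. FPKM times transcript length falls on steps of 1 fragment among low values, which gave the depth; no counting intervals were computed, and precision rests on 3 samples a group.

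Groups come from the sample titles. Liver columns 3 and 5 were used as normal livers with no link to a mouse, because their titles both name mouse 3. Tests used log2(FPKM + 1), which understates the change of low genes, on genes with at least 1 FPKM in at least 3 samples of a comparison, with limma 3.58.1 in R 4.3.3 (eBayes with a trend, two-sided), Benjamini-Hochberg adjustment over all genes tested and a threshold of 0.05. A mouse's big and small nodule were averaged on the log2 scale against livers. Intervals are 95% and unadjusted, so an interval may leave out 0 where the adjusted p is over 0.05. The big and small nodule of 1 mouse deviated together (r = 0.307, 0.252 and 0.325 across genes, and -0.249 to -0.0365 between mice), so mouse entered as a block in an alternative. Alternatives changed the pseudocount (0.1), the filter, the scaling, the trend and each sample in turn. The tests were also run on simulated data in which every sample varied independently. The link between nodules of 1 mouse was not simulated, so those runs do not cover it.

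Promoter windows (250 bases before to 50 after the start) are those of RefSeq, GRCm38.p6, and were matched by symbol. Coordinates of genes are those deposited. The RefSeq start lay 110 bases from the deposited start for Cyp3a11, 53 for Cyp4v3, 35 for Cyp2j5 and 10 for Cyp2j6. For the other windows shown the starts were the same. Coding identity and shared 100-base windows come from GENCODE M21, where all 33 identifiers were found without their version and 23 with it. Both compare only the longest listed transcript of each gene. The genes and lists were chosen with earlier results of these data known. All genes of the families are accounted for, up to 4 genes per list with the smallest adjusted p are named, others are marked as chosen after seeing their values, and promoters are those of the highest gene of each family in livers or in nodules. Cyp2d10 and Cyp2j6 were added to these after their values were seen.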

Additional observations from a re-analysis of the deposited data

How the results depend on the processing

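No called gene changed sign under any setting tried. Without the filter on low values, where more low genes were tested, 7 of the 33 genes rose in nodules, 6 in big and 5 in small nodules. With the filter the rises were 4, 3 and 3. Over all genes, 3585 of 13745 rose without the filter in nodules, 2932 of 13685 in big and 3134 of 13685 in small nodules. Bringing every sample to the same sum gave 5 rises in big nodules, where 2979 of all 10209 genes rose. Leaving out 1 mouse or liver gave 2 to 4 rises and 14 to 15 falls in nodules, 1 to 4 rises and 14 to 15 falls in big nodules, and 2 to 4 rises and 10 to 16 falls in small nodules. Over all genes these fits gave 2238 to 2615 rises and 982 to 1299 falls in nodules (10415 to 10574 tested). Big nodules gave 1435 to 1967 rises and 818 to 1222 falls (9564 to 10032 tested). Small nodules gave 1364 to 1915 rises and 627 to 1097 falls (9584 to 10124 tested). The lowest counts of rises were those without mouse 8 (2, nodules) and without the big nodule of mouse 15 (1, big nodules). Where 1 nodule was left out of big or small nodules against livers, Cyp4f16 missed the filter on low values. It was then not tested, so those counts leave out its rise. Every such setting gave 0 calls among these genes between big and small nodules and between model and normal thymi. With mouse as a replicate block there were 0 rises and 0 falls between big and small nodules. For nodules against livers, a fit of all 9 samples with mouse as a random effect gave 14 falls and 4 rises: the rise of Cyp2d26 was lost (adjusted p = 0.0695, limma) and Cyp4b1 was called higher (adjusted p = 0.0244). Over all 10669 genes that fit gave 1402 falls and 2957 rises. Model and normal groups share no mouse, so no replicate block could be fitted between them. The fall of Cyp3a11 in small nodules was lost under quantile normalization (adjusted p = 0.123, limma) and without any 1 liver or the small nodule of mouse 8 or 25 (adjusted p from 0.0619 to 0.0836). Genes under about 1 FPKM rest on few fragments, and close copies may exchange reads.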

Other observations

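Cyp2d37-ps lies outside the naming rule and was not tested with the others. It had 34.5, 37.8 and 68.9 FPKM in big nodules and 49.5, 27.5 and 45.7 FPKM in small nodules, against 42.1, 42.0 and 37.1 FPKM in normal livers, so the nodules lay on both sides of the livers. It was listed at 0 in 5 of the 6 thymi.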
